A study of Homo sapiens with 9 samples.

Results

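Transcripts of 10 genes of transforming growth factor-beta (TGF-beta) and activin signaling were followed in MDA-MB-231 cells that had survived a ferroptosis inducer. They were taken by gene symbol out of the 58735 genes in the deposited counts, with each symbol found exactly as the files give it. The rule uses no measured value, but the genes were proposed with earlier results of these data known. By role they are the ligand genes TGFB1, TGFB2 and INHBA, the receptor genes TGFBR1 and TGFBR2, the signal transducer SMAD3, the pathway inhibitors SMAD7 and SKIL, and the target genes ID1 and ID3. MDA-MB-231 is an established triple-negative breast cancer (TNBC) cell line. Ferroptosis is an iron-dependent cell death driven by peroxidized lipids; erastin induces it by blocking cystine uptake through system xc-, and RSL3 by inhibiting glutathione peroxidase 4. The 9 RNA-seq libraries form 3 groups of 3: vehicle (labelled as treated with DMSO), erastin-R (labelled as treated with erastin) and RSL3-R (labelled as treated with RSL3). All are from the same line, and the labels name no genetic change. The study describes the treated groups as survivors of rising drug concentrations; the labels give neither dose nor time, so the 2 drugs cannot be matched for either. A group of survivors holds both what a drug changed and what it selected, which cannot be told apart here. Nor do the labels say whether replicates were separate cultures, and p-values therefore measure only the spread between these libraries, which may be technical.

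In this pathway a TGF-beta or activin dimer brings together type II receptors (TGFBR2 for TGF-beta) and type I receptors (TGFBR1, also called ALK5), and the type I kinase phosphorylates SMAD2 and SMAD3, which enter the nucleus with SMAD4. Bone morphogenetic proteins (BMPs) use other receptors and SMAD1, SMAD5 and SMAD9, whose best-known targets are the ID genes, which encode inhibitors of basic helix-loop-helix transcription factors. Breast carcinoma cells often lose the growth arrest that TGF-beta imposes on normal epithelium while keeping its effects on migration, matrix and mesenchymal genes.

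Total counts were alike, from 16344940 to 16837694 in vehicle, 15405102 to 17005927 in erastin-R and 15513592 to 17273464 in RSL3-R libraries. Erastin-R replicate 1 stood apart from the other libraries of its group: its log2 CPM (CPM are counts scaled to the library size by edgeR's TMM method) across genes correlated with theirs at 0.986, against 0.992 between erastin-R replicates 2 and 3, so results for the genes named here that gain or lose an adjusted p under 0.05 without it are given both ways. The mesenchymal and basal markers VIM, CD44 and EGFR had at least 3670 counts in every library, but their levels were not fixed. In RSL3-R against vehicle EGFR was higher (log2 fold change 0.78, edgeR adjusted p = 5.07e-07) and CD44 lower (-0.43, adjusted p = 3.42e-05), with VIM at -0.13. ESR1 had 1 to 12 counts and PGR at most 2. The third receptor gene by which TNBC is defined, ERBB2 (HER2), had 927 to 1598 counts, at 87.8 to 96.9 CPM in vehicle, 77.7 to 88.9 in erastin-R and 59.8 to 63.6 in RSL3-R (log2 fold change -0.59 against vehicle, edgeR adjusted p = 1.21e-05). Markers of other cell types were low beside VIM, CD44 and EGFR, but PECAM1 had 154 to 177 counts in vehicle and 199 to 222 in RSL3-R. The summed leukocyte markers (PTPRC, CD3E and CD68) reached 0.679 to 0.864 CPM in vehicle, 0.182 to 0.655 in erastin-R, where CD3E and CD68 had no count, and 1.46 to 1.80 in RSL3-R. The summed endothelial markers (PECAM1 and VWF) reached 9.62 to 10.99 CPM in vehicle, 1.65 to 2.38 in erastin-R and 11.7 to 14.2 in RSL3-R, nearly all of it PECAM1. The epithelial markers CDH1 and EPCAM summed to 2.59 to 3.76, 1.34 to 2.74 and 4.60 to 5.42 CPM in the same order. The 2 did not move together in RSL3-R against vehicle. CDH1 was higher (log2 fold change 1.58, edgeR adjusted p = 0.00130), whereas EPCAM was at -0.37 (adjusted p = 0.314). PTPRC, with 4 to 11 counts in vehicle and 19 to 24 in RSL3-R, was higher there as well (1.67, edgeR adjusted p = 0.00818). The part of these markers in the results below was not tested. In bulk RNA, fewer cells carrying a transcript and less of it per cell cannot be told apart.

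TGFB1 and TGFB2 were higher in both treated groups. TGFBR2 was 2.07-fold lower in erastin-R cells, and ID1 and ID3 were 2.37-fold and 4.09-fold lower in RSL3-R cells, in which SMAD7 and SKIL were higher. For TGFBR2, ID1, ID3, SMAD7 and SKIL the treated groups also differed from each other, as they did for TGFBR1. Differences were tested with edgeR's quasi-likelihood test, and each p was corrected for the 16188 genes that passed its filter on low counts (Benjamini-Hochberg). All 10 genes passed that filter. A gene was called differentially expressed when its adjusted p was under 0.05 and its level differed by a log2 fold change of 1 or more in either direction. By that rule 1 of the 10 was called in erastin-R against vehicle (TGFBR2, lower), beside 13.4% of all genes tested, of which 6.7% were higher and 6.66% lower. In RSL3-R against vehicle 2 were called (ID1 and ID3, both lower), beside 10.1% of all genes (6.02% higher, 4.08% lower). In RSL3-R against erastin-R 4 were called, beside 10.3% of all genes (6.86% higher, 3.48% lower): TGFBR2 and SKIL were higher and ID1 and ID3 lower in RSL3-R. With no minimum fold, 6 of the 10 passed the adjusted p in erastin-R against vehicle (5 higher, 1 lower), where 54% of all genes did (27.1% higher, 26.8% lower). In RSL3-R against vehicle 7 passed (5 higher, 2 lower), where 48.7% of all genes did (23.8% higher, 24.9% lower), and in RSL3-R against erastin-R 6 passed (3 each way), where 49.2% did (22.3% higher, 26.9% lower). Not all of these shares lie near the background. The 4 of 10 called in RSL3-R against erastin-R lie above 10.3%. So do the 5 of 10 that passed the adjusted p as higher in each comparison with vehicle, beside 27.1% and 23.8%. The genes were proposed with earlier results of these data known, and no set test was run. The count of genes that moved is therefore not a result about this set. The libraries of the groups did not overlap for 6, 8 and 6 of the genes, where 57.9%, 61.9% and 55.2% of all genes did not. The median log2 fold change of the 10 was 0.28, 0.24 and 0.02 in these 3 comparisons, against -0.00, 0.01 and -0.02 over all genes tested. The comparisons with vehicle share the same 3 vehicle libraries.

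**Figure D1:**
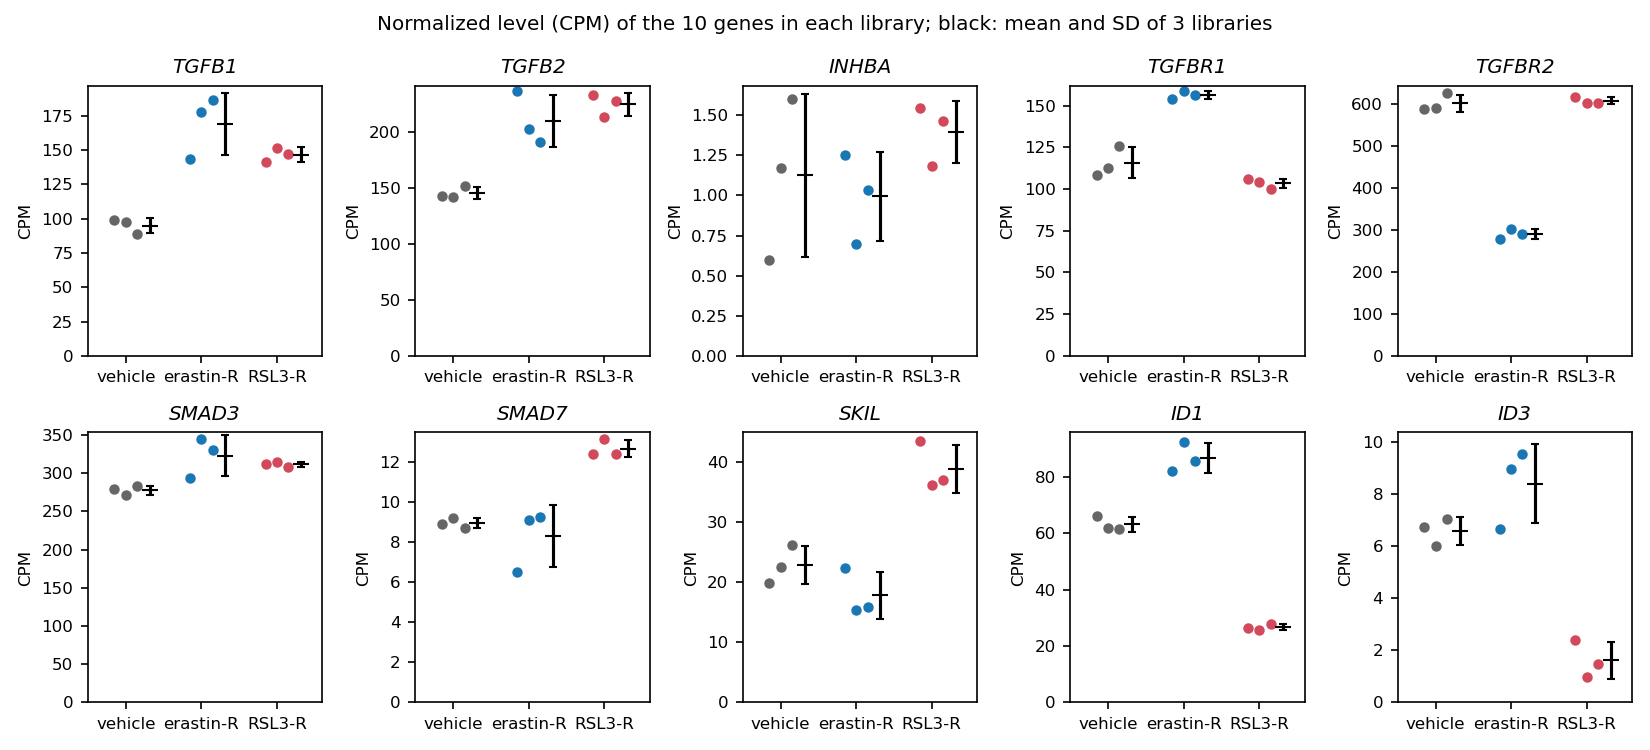
Level of each of the 10 genes in CPM (linear axes that start at 0), with 1 point per library, and a bar at the mean of each group of 3. TGFBR2 is low in the 3 erastin-R libraries (279 to 303 CPM against 589 to 626 in vehicle), and ID1 is low in the 3 RSL3-R libraries (25.8 to 27.9 against 61.4 to 66.2).

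Among the ligands, TGFB1 and TGFB2 rose in both treated groups and INHBA was close to the detection floor. TGFB1 (chr19:41301587-41353911, minus strand, GRCh38 as are all coordinates of genes given here) encodes the TGF-beta isoform best known from carcinomas. It reached 98.8, 97.5 and 88.8 CPM in vehicle replicates 1 to 3, 144, 178 and 186 CPM in erastin-R and 141, 152 and 147 CPM in RSL3-R. Every treated library lay above every vehicle library, and erastin-R replicate 1 lay among the RSL3-R libraries. The log2 fold change against vehicle was 0.83 (standard error 0.09, edgeR adjusted p = 2.67e-06) in erastin-R and 0.63 (0.09, adjusted p = 4.27e-05) in RSL3-R. RSL3-R and erastin-R cells differed by -0.21 (edgeR adjusted p = 0.0588); without erastin-R replicate 1 this was -0.31 (adjusted p = 9.88e-06). The exons of TGFB1 overlap those of HNRNPUL1, an RNA-binding protein gene on the opposite strand, over 6.64% of their length, and whether the counting used strand is not given in the sources used here. Against vehicle, HNRNPUL1 was at -0.09 in erastin-R cells on the log2 scale and at -0.33 in RSL3-R cells (edgeR adjusted p = 0.196 and 2.75e-04). The part of this overlap in the TGFB1 values was not tested.

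TGFB2 (chr1:218346235-218444619, plus strand) encodes another isoform, which needs the co-receptor betaglycan to bind TGFBR2 well. Its level was 143, 142 and 152 CPM in vehicle, 236, 202 and 191 CPM in erastin-R and 233, 213 and 227 CPM in RSL3-R. The treated libraries again lay above all vehicle libraries, with erastin-R replicate 1 the highest of the 9. Relative to vehicle, the log2 fold change was 0.53 (standard error 0.08, edgeR adjusted p = 5.34e-05) in erastin-R and 0.63 (0.08, adjusted p = 1.33e-05) in RSL3-R. The 2 treated groups differed by 0.10 (edgeR adjusted p = 0.302), and by 0.19 without erastin-R replicate 1 (adjusted p = 0.00199). A non-coding gene on the same strand, TGFB2-OT1, covers 26.6% of the exon bases of TGFB2 and had no count in any library. How reads over the shared bases were assigned is not given in the sources used here. Its lack of counts therefore does not show whether it was transcribed, and TGFB2 may lack such reads. The part of this overlap in the TGFB2 values was not tested.

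INHBA (chr7:41667168-41705834, minus strand) encodes the beta A subunit, a pair of which forms activin A. Its counts were 10, 19 and 26 in vehicle, 21, 11 and 17 in erastin-R and 24, 19 and 25 in RSL3-R. The groups overlapped in every comparison. The log2 fold changes were -0.17 (standard error 0.38, edgeR adjusted p = 0.732) in erastin-R and 0.31 (0.36, adjusted p = 0.499) in RSL3-R against vehicle, so a difference was not detectable at this depth.

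Ligand transcripts were compared with each other per length, as the FPKM values deposited by the authors. TGFB1 made up 50.2% ± 2.33 (SD, n = 3) of the summed FPKM of TGFB1, TGFB2, TGFB3 and INHBA in vehicle, 55.7% ± 6.19 in erastin-R and 50.6% ± 2.04 in RSL3-R. TGFB2 made up 48.3% ± 2.40, 43.6% ± 5.95 and 48.7% ± 1.94. These 2 isoforms thus supplied nearly all of this sum, in about equal parts in vehicle and RSL3-R by the deposited values. Those values were not corrected for the overlap of TGFB2 with TGFB2-OT1. The sum leaves out INHBB, whose level is given below. The spread in erastin-R came from replicate 1, in which TGFB1 had 48.7%, against 58.0% and 60.4% in replicates 2 and 3. TGFB3 held 1.23% ± 0.170 in vehicle and 0.585% ± 0.234 and 0.609% ± 0.0940 in erastin-R and RSL3-R, and INHBA at most 0.335% in any library. No test was run on these shares.

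The receptors moved in opposite directions in erastin-R cells. TGFBR2 (chr3:30606502-30694142, plus strand) encodes the type II receptor, the subunit that first binds TGF-beta. It reached 589, 592 and 626 CPM in vehicle, 279, 303 and 291 CPM in erastin-R and 618, 603 and 604 CPM in RSL3-R. The erastin-R libraries lay far below all others, whereas the RSL3-R libraries lay within the range of vehicle. Against vehicle, TGFBR2 changed by -1.05 on the log2 scale (standard error 0.05, edgeR adjusted p = 5.02e-09) in erastin-R, and was at 0.01 (0.05, adjusted p = 0.849) in RSL3-R. RSL3-R cells were 2.09-fold higher than erastin-R cells (log2 fold change 1.06, standard error 0.05, edgeR adjusted p = 6.10e-09). PECAM1 also fell in erastin-R, with a log2 fold change of -2.47 (edgeR adjusted p = 8.28e-08), from 154 to 177 counts in vehicle to 20 to 36; TGFBR2 had at least 4687 counts in every library.

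TGFBR1 (chr9:99104038-99154192, plus strand) encodes the type I receptor kinase. It reached 109, 113 and 126 CPM in vehicle, 154, 159 and 157 CPM in erastin-R and 106, 104 and 100.2 CPM in RSL3-R. The 3 groups did not overlap, with erastin-R highest and RSL3-R lowest. Against vehicle the log2 fold change was 0.43 (standard error 0.06, edgeR adjusted p = 6.74e-05) in erastin-R and -0.16 (0.06, adjusted p = 0.0502) in RSL3-R, where the adjusted p passed 0.05 in 3 of 15 alternatives (range 0.00763, without erastin-R replicate 1, to 0.319). RSL3-R cells had 1.51-fold less than erastin-R cells (log2 fold change -0.60, standard error 0.06, edgeR adjusted p = 5.78e-06).

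Set against each other within a library, the ratio of TGFBR2 to TGFBR1 in FPKM was 7.90, 7.64 and 7.22 in vehicle replicates 1 to 3 and 8.49, 8.43 and 8.77 in RSL3-R, but 2.64, 2.77 and 2.71 in erastin-R. The type II transcript stayed the more abundant per length in all 9 libraries, by a margin that was much smaller in erastin-R. The ratio combines values already tested above and was given no test of its own.

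Of the genes that passed the test in both comparisons with vehicle, SMAD3 moved by the smallest step. SMAD3 (chr15:67063763-67195195, plus strand) encodes the transcription factor that carries the TGF-beta and activin signal. It was at 279, 271 and 283 CPM in vehicle, 293, 344 and 331 CPM in erastin-R and 312, 315 and 308 CPM in RSL3-R. All treated libraries lay above the vehicle libraries, erastin-R replicate 1 by a small step. The log2 fold change was 0.22 (standard error 0.06, edgeR adjusted p = 0.00932) in erastin-R and 0.17 (0.06, adjusted p = 0.0401) in RSL3-R. The erastin-R call was lost without erastin-R replicate 2 (adjusted p = 0.05003). The RSL3-R call was lost in 7 of 15 alternatives (adjusted p from 6.11e-04 to 0.146), among them the omission of any of the 3 vehicle libraries or of RSL3-R replicate 2. Between the treated groups SMAD3 was at -0.05 (edgeR adjusted p = 0.525), and at -0.12 without erastin-R replicate 1 (adjusted p = 0.0212). An antisense gene, AC087482.1, overlaps 1.997% of the SMAD3 exon bases and had 3 to 12 counts.

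The inhibitors rose in RSL3-R cells. SMAD7 (chr18:48919853-48952052, minus strand) encodes the inhibitory SMAD that occupies the type I receptor and recruits ubiquitin ligases to it, and it is itself induced by TGF-beta. Its level was 8.88, 9.20 and 8.70 CPM in vehicle, 6.49, 9.10 and 9.24 CPM in erastin-R and 12.4, 13.1 and 12.4 CPM in RSL3-R. RSL3-R stood above both other groups, and in erastin-R only replicate 1 lay clearly outside the range of vehicle. SMAD7 had log2 fold changes against vehicle of 0.50 (standard error 0.13, edgeR adjusted p = 0.00719) in RSL3-R and -0.11 (0.14, adjusted p = 0.525) in erastin-R, where it was 0.04 without replicate 1. RSL3-R exceeded erastin-R by 0.61 (standard error 0.14, edgeR adjusted p = 0.00204).

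SKIL (chr3:170357678-170396835, plus strand) encodes SnoN, a co-repressor that binds SMAD complexes on DNA, is degraded on TGF-beta signaling and is then resynthesized as a target. It was at 19.9, 22.5 and 26.2 CPM in vehicle, 22.4, 15.3 and 15.8 CPM in erastin-R and 43.5, 36.2 and 37.0 CPM in RSL3-R. All RSL3-R libraries lay above all others, while erastin-R replicate 1 lay within the vehicle range and replicates 2 and 3 below it. The log2 fold change in RSL3-R was 0.77 (standard error 0.14, edgeR adjusted p = 4.29e-04) against vehicle and 1.12 (0.14, adjusted p = 2.36e-05) against erastin-R. In erastin-R against vehicle it was -0.35 (standard error 0.15, edgeR adjusted p = 0.0533); without erastin-R replicate 1 it was -0.55 (adjusted p = 1.20e-04). Over 15 alternatives the adjusted p ran from 1.20e-04 to 0.213, passing 0.05 in 5.

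ID1 and ID3, the targets best known from the BMP arm, fell in RSL3-R cells. ID1 (chr20:31605283-31606515, plus strand) encodes an inhibitor of differentiation that binds E proteins and keeps them off DNA. It was at 66.2, 62.1 and 61.4 CPM in vehicle, 82.2, 92.4 and 85.6 CPM in erastin-R and 26.4, 25.8 and 27.9 CPM in RSL3-R. The 3 groups were fully separate. ID1 had log2 fold changes of -1.24 (standard error 0.07, edgeR adjusted p = 1.15e-08) in RSL3-R and 0.46 (0.07, adjusted p = 7.86e-05) in erastin-R against vehicle. Between the treated groups it was -1.70 (standard error 0.07, edgeR adjusted p = 1.92e-09), that is 3.25-fold lower in RSL3-R.

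ID3 (chr1:23557918-23559794, minus strand) encodes a close relative of ID1. Its counts were lower, at 6.74, 5.99 and 7.03 CPM in vehicle, 6.67, 8.97 and 9.54 CPM in erastin-R and 2.39, 0.994 and 1.46 CPM in RSL3-R, the last from 37, 16 and 25 counts. The RSL3-R libraries lay below all others, with erastin-R replicate 1 within the vehicle range. The log2 fold change was -2.03 (standard error 0.25, edgeR adjusted p = 1.41e-05) in RSL3-R against vehicle and -2.38 (0.24, adjusted p = 3.73e-06) against erastin-R. In erastin-R against vehicle it was 0.35 (standard error 0.20, edgeR adjusted p = 0.163), and 0.49 without erastin-R replicate 1 (adjusted p = 0.0213). Over 15 alternatives that adjusted p ran from 0.0213 to 0.395, and the omission of this library was the only one to bring it under 0.05.

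**Figure D2:**
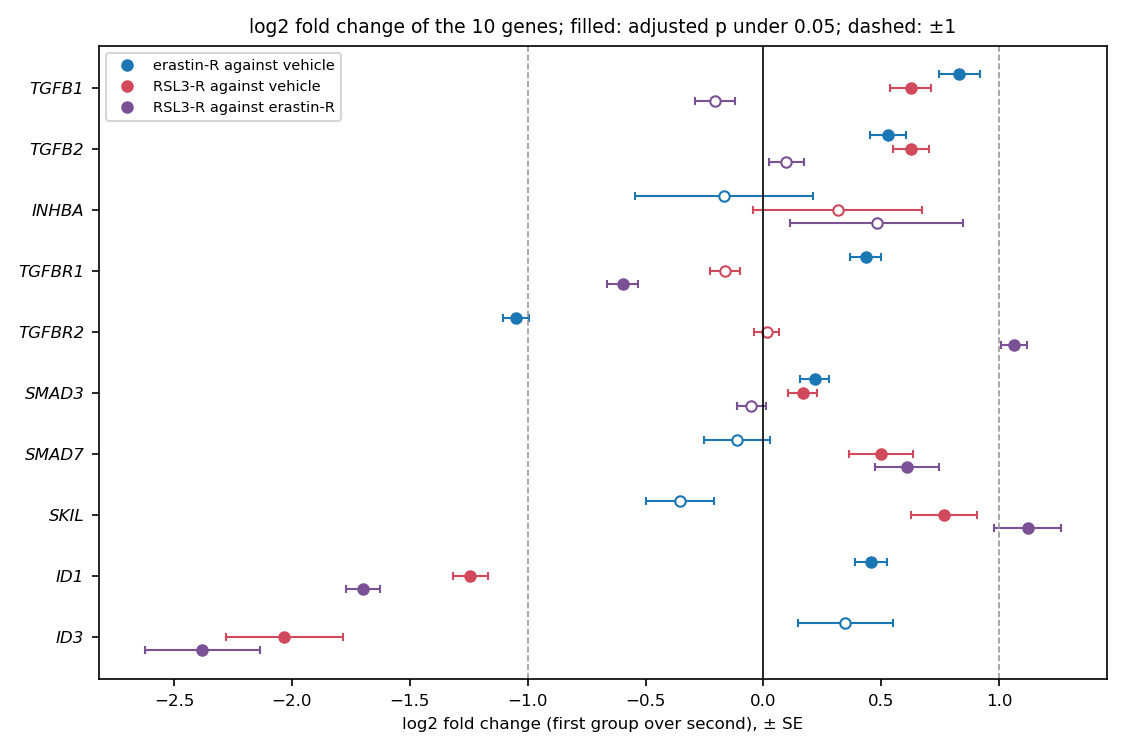
Fitted log2 fold change of each gene in the 3 comparisons (horizontal axis, first group named over the other), with bars of 1 standard error; filled points passed an adjusted p of 0.05, and dashed lines mark -1 and 1. TGFBR2 departs from 0 where erastin-R is compared (-1.05 and 1.06) and lies at 0.01 in RSL3-R against vehicle, whereas ID1 and ID3 lie left of -1 where RSL3-R is compared.

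Because SKIL and ID1 moved in opposite directions in RSL3-R cells, their promoters are shown side by side, as far as the bases before the transcription start of the counted gene model. The window of ID3 lies wholly inside its counted gene model and is not shown. The windows are from RefSeq (GRCh38.p14) and were found for all 10 genes, with 24 windows in all since several genes have more than 1 start. Capitals mark GGCGCC in the SKIL sequence, a GC-rich element known to bind SMADs at BMP targets, and in the ID1 sequence the run in which TATAAA, the TATA box core, occurs on both strands.
SKIL, chr3:170357465-170357677, plus strand: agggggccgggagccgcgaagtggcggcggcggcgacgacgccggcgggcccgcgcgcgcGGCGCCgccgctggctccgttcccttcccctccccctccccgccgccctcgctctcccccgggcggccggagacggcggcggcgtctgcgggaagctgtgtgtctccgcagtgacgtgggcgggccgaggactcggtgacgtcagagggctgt
ID1, chr20:31605039-31605282, plus strand: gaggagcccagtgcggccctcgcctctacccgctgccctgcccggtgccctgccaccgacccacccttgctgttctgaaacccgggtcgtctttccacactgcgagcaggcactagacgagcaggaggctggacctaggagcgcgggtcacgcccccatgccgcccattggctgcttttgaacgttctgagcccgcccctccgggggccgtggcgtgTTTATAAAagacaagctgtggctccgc

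Of 4 motifs searched on both strands over the full windows, the palindromic SMAD element GTCTAGAC was in 0 of the 24 windows and in 0.202% of all 35116 RefSeq promoter windows of this length. The CAGA box core CAGACA was in 5 of the 24 windows, from 4 genes (TGFB2, INHBA, TGFBR1 and SMAD3), and in 16.9% of all windows. GGCGCC was in 3 windows (TGFBR1, SMAD3 and SKIL; 19.2% of all), and the AP-1 site TGANTCA in 2 (TGFBR2 and SMAD3; 7.71% of all). The windows of ID1 and ID3 held none of these 4. TATAAA, which was added after the sequences had been read, was in 4 windows (TGFB2, INHBA, SMAD7 and ID1; 11.5% of all). GTCTAGAC and CAGACA share the letters AGAC, but neither contains the other. A match or its lack describes the letters of the window alone.

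Per length, TGFBR2 was the most abundant of the 10 transcripts in vehicle, at 127 ± 4.62 FPKM (SD, n = 3). ID1 followed at 50.8 ± 2.03, then SMAD3 (30.1 ± 0.724), TGFB1 (29.04 ± 1.60) and TGFB2 (28.0 ± 1.15), and neither SMAD3 nor TGFB2 differed from TGFB1 by more than the SD of TGFB1. TGFBR1 had 16.7 ± 1.36, ID3 3.63 ± 0.301, SKIL 2.91 ± 0.405, SMAD7 1.76 ± 0.0476 and INHBA 0.134 ± 0.0605 FPKM. In erastin-R the order at the top turned, with ID1 at 69.4 ± 4.24 above TGFBR2 at 61.0 ± 2.59 and TGFB1 at 51.5 ± 7.04. In RSL3-R TGFBR2 was again the highest at 128 ± 1.77, while ID1 at 21.5 ± 0.907 FPKM stood below TGFB1 (44.9 ± 1.60), TGFB2 (43.3 ± 1.98) and SMAD3 (33.9 ± 0.302), of which the first 2 lay within 1 SD of TGFB2 of each other. ID3 there (0.891 ± 0.391) fell below SMAD7 (2.49 ± 0.0793) and SKIL (4.96 ± 0.504). INHBA was last in all 3 groups.

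**Figure D3:**
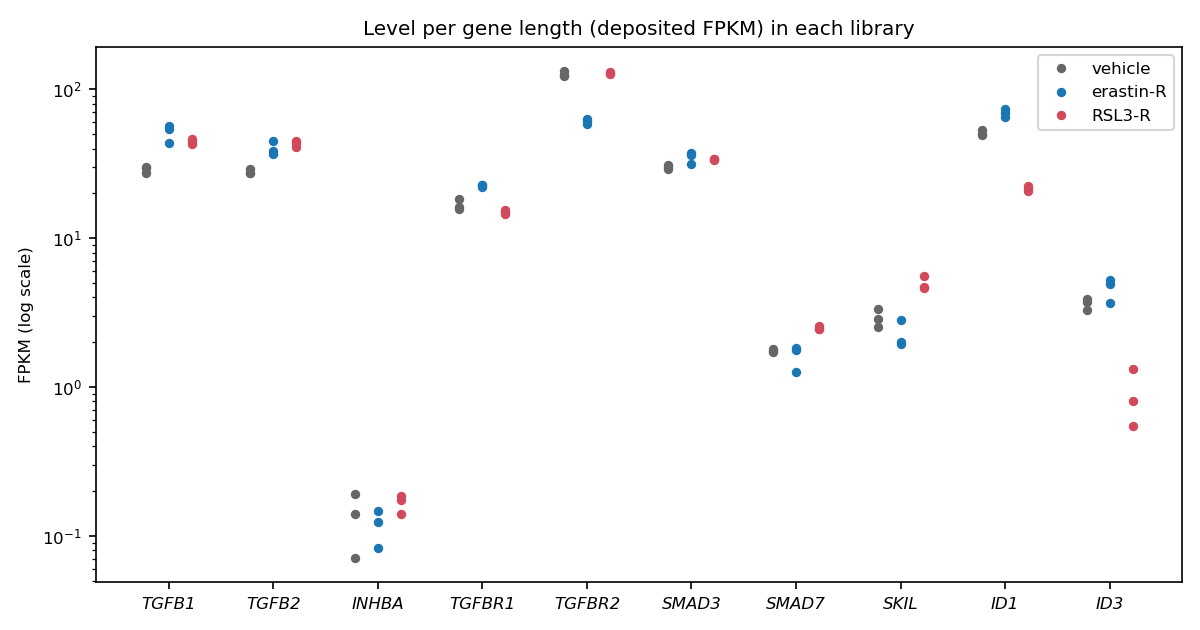
Level per gene length of the 10 genes in FPKM (fragments scaled for gene length and library size, as deposited; log axis), with 1 point per library in the 3 groups. The genes span about 3 orders on this axis, from INHBA (group means 0.118 to 0.167 FPKM) to TGFBR2 (61.0 to 128 FPKM).

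The rest of the pathway was read from 6 lists with 77 further genes, of which 65 passed the filter on low counts. In erastin-R against vehicle 16 were differentially expressed (10 higher, 6 lower), in RSL3-R against vehicle 8 (6 higher, 2 lower) and in RSL3-R against erastin-R 9 (5 higher, 4 lower), where 13.4%, 10.1% and 10.3% of all genes tested were called. Past the adjusted p alone were 47, 37 and 43 of the 65, where 54%, 48.7% and 49.2% of all genes were. Their median log2 fold changes were 0.23, 0.21 and -0.01. Without erastin-R replicate 1 the called genes numbered 19, 9 and 12, where 15.5%, 10.7% and 12.9% of all genes tested were called.

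Of 10 other ligand genes 7 were tested. INHBE, the activin beta E subunit and a gene known to rise in amino acid and endoplasmic reticulum stress, had 1, 3 and 3 counts in vehicle, 31, 22 and 23 in erastin-R and 102, 94 and 111 in RSL3-R. The ratio of the summed normalized counts to those of vehicle was 10.9 in erastin-R (exact 95% counting interval 5.04 to 28.0) and 44.3 in RSL3-R (21.2 to 111), intervals that cover counting error only. RSL3-R exceeded erastin-R by a log2 fold change of 2.02 (standard error 0.21, edgeR adjusted p = 4.04e-06). Per length, INHBB, the beta B subunit, was the most abundant of these activin genes in vehicle, at 9.86 ± 0.584 FPKM (SD, n = 3) against 0.134 ± 0.0605 for INHBA. It reached 32.7, 29.8 and 33.3 CPM in vehicle, 9.65, 11.01 and 10.03 CPM in erastin-R and 39.9, 41.1 and 37.9 CPM in RSL3-R. It was 3.12-fold lower in erastin-R (log2 fold change -1.64, standard error 0.09, edgeR adjusted p = 7.98e-09) and higher by 0.31 in RSL3-R (0.08, adjusted p = 0.00623), with no overlap between groups.

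The BMP ligands went different ways. BMP4 was lower in both treated groups, by -1.26 on the log2 scale in erastin-R (standard error 0.07, edgeR adjusted p = 6.01e-09) and by -0.47 in RSL3-R (0.06, adjusted p = 4.23e-05), from 67.9 ± 1.88 CPM in vehicle (SD, n = 3) to 28.3 ± 1.20 and 49.1 ± 0.582. BMP2 rose by 0.88 (standard error 0.15, edgeR adjusted p = 2.03e-04) and 1.29 (0.14, adjusted p = 6.44e-06), from 4.72 ± 0.452 CPM to 8.66 ± 0.307 and 11.5 ± 1.79. BMP6, which in liver signals iron stores, had 9 to 17 counts in vehicle, 50 to 56 in erastin-R and 22 to 28 in RSL3-R. Its log2 fold changes were 2.17 (edgeR adjusted p = 1.99e-05) and 1.05 (adjusted p = 0.0116). The RSL3-R value no longer met both thresholds after quantile normalization, or without vehicle replicate 2, vehicle replicate 3 or RSL3-R replicate 2. Over all alternatives the RSL3-R value ran from 0.76 to 1.40.

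Of 14 extracellular regulators (latent TGF-beta binding proteins, activating integrins, follistatins and BMP antagonists) 10 were tested and 0 were differentially expressed in any comparison by edgeR, by DESeq2 or by limma after quantile normalization. At an unadjusted p under 0.05 edgeR gave 8, 7 and 8 of them in the 3 comparisons, where it gave 59.2%, 54.8% and 55.2% of all genes. Past the adjusted p were 4 higher and 4 lower in erastin-R, 3 higher and 1 lower in RSL3-R, and 4 each way between the treated groups, where 54%, 48.7% and 49.2% of all genes passed in either direction. Of 11 other receptor genes, all tested, ACVR2B, an activin type II receptor, rose in erastin-R from 21.7 ± 3.72 to 49.2 ± 4.32 CPM (SD, n = 3; log2 fold change 1.18, standard error 0.11, edgeR adjusted p = 1.04e-06), and by 0.35 in RSL3-R (adjusted p = 0.0204), which was lost without vehicle replicate 1 or 2 or RSL3-R replicate 2 (adjusted p = 0.0665, 0.116 and 0.0722). ACVRL1, a type I receptor best known from endothelium, had 16 to 34 counts in vehicle, 6 to 19 in erastin-R and 22 to 32 in RSL3-R. Its log2 fold change in RSL3-R against erastin-R was 1.37 (standard error 0.44, edgeR adjusted p = 0.0188), a call lost without erastin-R replicate 2 or 3 or RSL3-R replicate 1 or 2 (adjusted p at most 0.0784 over the alternatives). In erastin-R against vehicle it was -0.99 (edgeR adjusted p = 0.0791), and -1.61 without erastin-R replicate 1 (adjusted p = 0.00637).

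Of 17 other SMADs and SMAD regulators 16 were tested, 11 passing the adjusted p as higher and 2 as lower in erastin-R, where 27.1% and 26.8% of all genes did, and 5 and 2 in RSL3-R, where 23.8% and 24.9% did. Both differentially expressed genes were negative regulators and rose in erastin-R. The 2 that passed as lower in erastin-R also act against the pathway, as do the 2 that passed as lower in RSL3-R. The negative regulators of this list thus did not all move the same way in either group. TGIF1, a co-repressor of SMAD2 and SMAD3, went from 69.6, 67.9 and 66.9 CPM in vehicle to 169, 209.96 and 202 CPM in erastin-R (log2 fold change 1.51, standard error 0.08, edgeR adjusted p = 4.15e-09) and 103, 105 and 107 CPM in RSL3-R (0.62, adjusted p = 1.55e-05). NEDD4L, a ubiquitin ligase for activated SMAD2 and SMAD3, went from 154, 151 and 163 CPM to 424, 407 and 399 CPM in erastin-R (1.39, standard error 0.06, edgeR adjusted p = 5.41e-10) and 293, 292 and 302 CPM in RSL3-R (0.92, adjusted p = 1.37e-08). RSL3-R lay between vehicle and erastin-R for both, and differed from erastin-R by -0.89 and -0.47 (edgeR adjusted p = 6.82e-07 and 1.05e-05).

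Of 19 targets of SMAD2 and SMAD3, 18 were tested. By the fold rule 4 were higher and 3 lower in erastin-R, where 13.4% of all genes were called, and 1 was higher and 1 lower in RSL3-R, where 10.1% were. IL11, a cytokine of bone metastasis that TGF-beta induces in MDA-MB-231 cells, reached 29.2, 26.8 and 23.6 CPM in vehicle, 97.6, 133 and 131 CPM in erastin-R and 34.5, 39.1 and 33.4 CPM in RSL3-R. Its log2 fold change was 2.19 (standard error 0.12, edgeR adjusted p = 7.59e-09) in erastin-R and 0.43 (0.12, adjusted p = 0.0109) in RSL3-R, which differed from each other by -1.76 (0.12, adjusted p = 7.04e-08). The RSL3-R value missed an adjusted p of 0.05 without vehicle replicate 3 (0.0596) or RSL3-R replicate 2 (0.0570). SNAI1, a repressor of epithelial genes, had 21 to 31 counts in vehicle, 84 to 97 in erastin-R and 41 to 45 in RSL3-R (1.86 and 0.77, edgeR adjusted p = 2.99e-06 and 0.00769).

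JUNB, ANGPTL4 and PDGFB did not follow that order. JUNB, a subunit of AP-1, rose alike in both, by 1.19 and 1.20 (standard error 0.08 each, edgeR adjusted p = 5.65e-08 and 4.80e-08), and the difference between them was 0.01 (standard error 0.08, adjusted p = 0.922). ANGPTL4, a lipoprotein lipase inhibitor that PPAR and hypoxia also induce, fell in both, from 40.5 ± 0.871 CPM (SD, n = 3) to 15.5 ± 3.88 in erastin-R and 19.3 ± 0.446 in RSL3-R (-1.38 and -1.07, edgeR adjusted p = 1.15e-06 and 1.26e-05). PDGFB, a platelet-derived growth factor subunit, had 45 to 71 counts in vehicle, 8 to 26 in erastin-R and 70 to 108 in RSL3-R (-1.67 and 0.68, edgeR adjusted p = 5.33e-04 and 0.0405), and RSL3-R exceeded erastin-R by 2.35 (standard error 0.30, adjusted p = 2.72e-05). The RSL3-R value of PDGFB against vehicle missed an adjusted p of 0.05 in 5 of 15 alternatives, with 0.146 as the highest: after quantile normalization, and without vehicle replicate 2 or 3 or RSL3-R replicate 1 or 3. The 3 remaining called genes of the list were CCN2 (1.01 in erastin-R), FN1 (-1.08 in erastin-R) and SNAI2 (-1.04 in RSL3-R against erastin-R), of which CCN2 and SNAI2 are named after their values were seen. Their edgeR adjusted p were 1.08e-08, 7.12e-09 and 4.02e-05, but CCN2 fell short of a log2 fold change of 1 without vehicle replicate 2 or erastin-R replicate 2 or 3 (0.98 at the lowest), SNAI2 without erastin-R replicate 2 or RSL3-R replicate 1 (-0.92 at the least), and FN1 after quantile normalization (-0.91). In the order of its groups CCN2 was like IL11 and SNAI1, at 0.60 in RSL3-R against vehicle and -0.41 against erastin-R (edgeR adjusted p = 1.33e-06 and 5.08e-05).

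Of 6 further BMP-arm targets only ID4, ATOH8 and HEY1 had enough counts for a test. ID4 rose where ID1 and ID3 fell: it had 18 to 27 counts in vehicle, 40 to 73 in erastin-R and 51 to 86 in RSL3-R, with log2 fold changes of 1.29 (standard error 0.29, edgeR adjusted p = 0.00210) and 1.56 (0.29, adjusted p = 4.89e-04). ID2, the last of the family, had at most 8 counts in any library. ATOH8, a transcription factor induced by BMP signaling, fell in both groups, from 146 to 149 counts in vehicle to 32 to 48 in erastin-R and 29 to 36 in RSL3-R (-1.80 and -2.17, edgeR adjusted p = 1.72e-06 and 4.70e-07). Between the treated groups ATOH8 was at -0.37 (edgeR adjusted p = 0.164), and at -0.55 without erastin-R replicate 1 (adjusted p = 0.0349). HEY1, which Notch also induces, rose in RSL3-R, from 20 to 30 counts in vehicle and 22 to 42 in erastin-R to 117 to 135 (2.34 against vehicle, standard error 0.23, edgeR adjusted p = 1.62e-06).

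**Figure D4:**
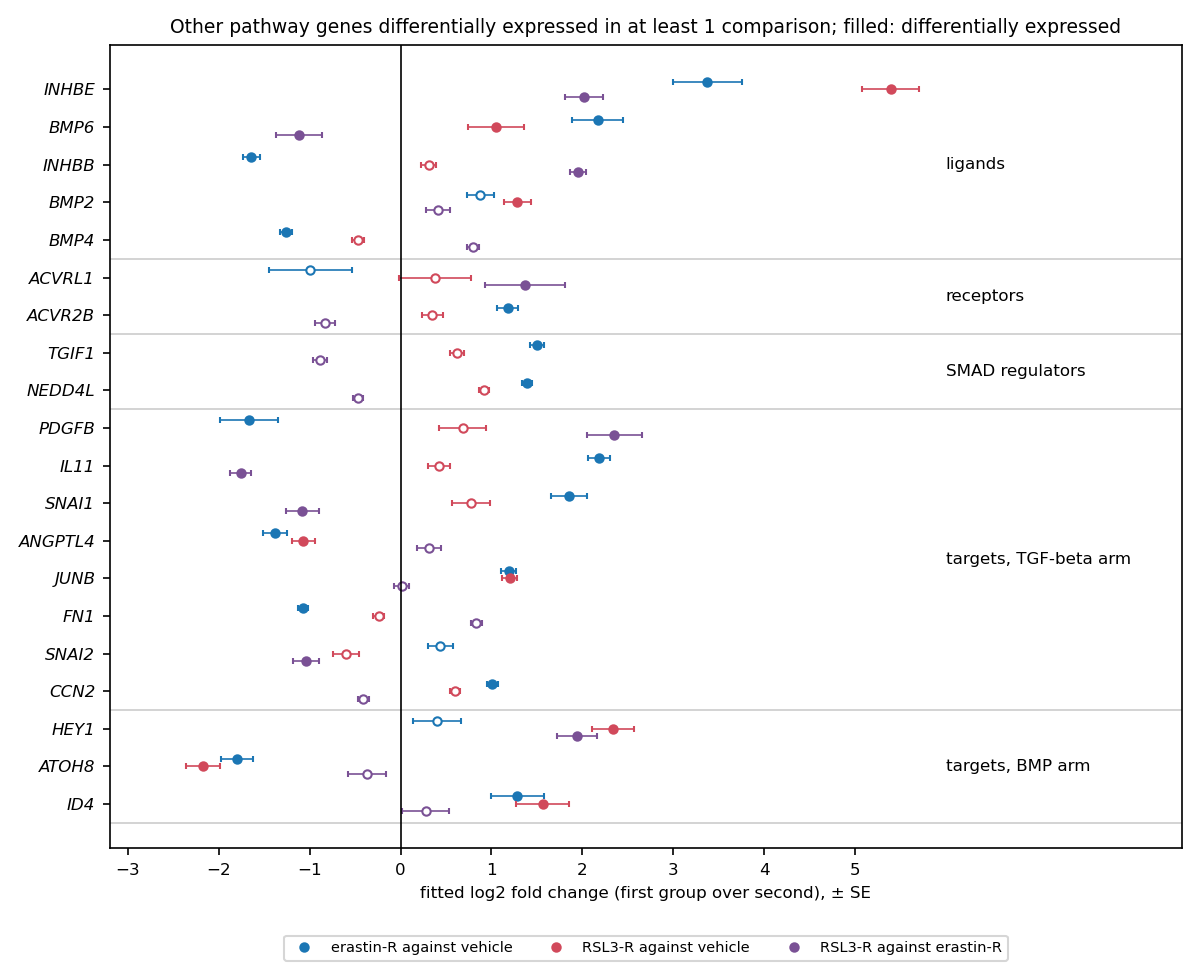
Fitted log2 fold change (horizontal axis, ± 1 standard error) of the 20 other pathway genes differentially expressed in at least 1 of the 3 comparisons, grouped by list; filled points met both thresholds. INHBE is at the far right (3.38 and 5.39 against vehicle, fitted values that depend on its 1 to 3 vehicle counts), and IL11 and SNAI1 are farther right in erastin-R than in RSL3-R against vehicle.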

How the data were processed

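RNA of 9 MDA-MB-231 libraries was analysed, grouped by the treatment labels; group names follow the study. For each gene the authors deposited a count, not normalized (per the study's methods, of uniquely mapped reads in exons), and an FPKM value made from it, scaled for gene length and library size. The submitters' processing notes name HISAT2 2.0.5 and featureCounts 1.5.0-p3; the strand setting is not given in the sources used here. Libraries were selected with oligo(dT), so RNA without a poly(A) tail is missing. All 58735 gene identifiers had the coordinates of GENCODE release 29 (GRCh38).

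The main test was edgeR's quasi-likelihood test (edgeR 4.0.16, R 4.3.3) after TMM scaling and filterByExpr, in 1 model for the 3 groups without covariates. CPM are counts scaled by the TMM-adjusted library size. The common dispersion was 0.00732 (biological coefficient of variation 8.56%), and 3 counts corresponded to 0.175 to 0.193 CPM. The F statistic gave the standard error of each log2 fold change. The study's methods name Cufflinks with an unadjusted p, which counts cannot give, so the threshold of its legend (absolute log2 fold change of at least 1, adjusted p under 0.05) was used. Alternatives were DESeq2 1.42.0, quantile normalization with limma 3.58.1, no TMM factor, no filter, only the groups compared, a replicate block, each library left out, and a fold over 2 with an unadjusted p. The test was tried on simulated data. Plots used matplotlib 3.10.9 (Python 3.11.15).

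The 10 genes, the 6 lists and the motifs were chosen with earlier results of these data known, and nothing is supported by that choice. The 10 genes are named throughout. Of each list the differentially expressed genes are named, at most 6 by absolute log2 fold change, and CCN2 and SNAI2 were added after their values were seen. A gene of the SMAD2 and SMAD3 target list is not reported here, and the counts of that list leave it out. No per-gene test was made on FPKM, and the study's other experiments were not analysed here.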

Additional observations from a re-analysis of the deposited data

How the results depend on the processing

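Over 15 alternative fits, 19 of the 30 log2 fold changes of the 10 genes kept their direction and their side of an adjusted p of 0.05, 8 changed side in some fit and 3 changed sign. These 3 sign changes were in values near 0 that passed no test. INHBA in erastin-R against vehicle was 0.17 without vehicle replicate 3 and 0.03 without erastin-R replicate 2, within a range of -0.48 to 0.17. SMAD7 in erastin-R against vehicle was 0.037 without erastin-R replicate 1 (-0.20 to 0.037), and TGFBR2 in RSL3-R against vehicle was -0.00283 without vehicle replicate 1 and -0.00284 without vehicle replicate 2 (-0.00284 to 0.057). Among the other pathway genes, FN1 in RSL3-R against vehicle passed the main test as lower (-0.24, edgeR adjusted p = 0.00324) but was 0.023 after quantile normalization. JUNB in RSL3-R against erastin-R was -0.00358 without the TMM factor and -0.054 without erastin-R replicate 1 (-0.054 to 0.077 over the fits that leave out 1 library). The cause was not tested. The counts of differentially expressed genes among the 10 stayed at 1, 2 and 4 with DESeq2, with the replicate block and without erastin-R replicate 1. Of 33 calls among the 20 named pathway genes, 26 held in every fit. Besides those given with the results, BMP6 and SNAI1 in RSL3-R against erastin-R fell short of the fold threshold without RSL3-R replicate 3 (-0.99 and -0.97).

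The replicate numbers did not pair libraries across groups: deviations from the group means correlated at -0.00495 on average over the 9 equally numbered pairs and at 0.00256 over the 18 others, and 2 of 9 libraries were closest to their own number. With the replicate block, 7, 6 and 6 of the 10 genes passed the adjusted p in the 3 comparisons, against 6, 7 and 6 without it. SKIL in erastin-R against vehicle then passed (adjusted p = 0.0460) and SMAD3 in RSL3-R against vehicle did not (0.0627).

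No scaling moved the median of all genes by as much as 0.1. Quantile normalization gave 822 higher and 644 lower genes (56.1% higher) in RSL3-R against erastin-R, where TMM gave 1111 and 563 (66.4% higher). Depth limits INHBA, ID3 in RSL3-R and the pathway genes under about 30 counts.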
